A study of Mus musculus with 6 samples.

Results

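The 10 endothelial marker genes *Pecam1*, *Cdh5*, *Kdr*, *Flt1*, *Tek*, *Tie1*, *Vwf*, *Cldn5*, *Emcn* and *Eng* were followed in mouse muscle with and without *Tarsl2*, which encodes a threonyl-tRNA synthetase-like protein. They were chosen by name as junction, receptor and surface markers of the cells that line vessels, and each matched 1 of the 53084 rows of the count table. All 10 were among the 15075 genes with enough counts to be tested, with between 114 and 815 counts in each library. RNA-seq had been done on muscle of 6-week-old male C57BL/6 mice on standard chow, 1 library per mouse. The 3 mice labelled WT (583, 584 and 595) carry intact *Tarsl2* and are written *Tarsl2*+/+, and the 3 labelled Tarsl2 KO (588, 589 and 591) are written *Tarsl2*-/-. In the latter, a fragment holding exon 3 of *Tarsl2* had been removed with CRISPR/Cas9 in C57BL/6J zygotes, so the deletion is in every cell type and not in endothelium alone. The sample title of mouse 589 begins with KOT1, whereas those of mice 588 and 591 begin with KO1. What the added letter means is not given. Which muscle was taken is not given in the sources used here.

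The gene counts summed to between 16176591 and 20123767 per library. *Tarsl2* itself had 456 to 605 counts in the *Tarsl2*+/+ and 30 to 40 in the *Tarsl2*-/- libraries. Muscle fibre genes were high in every library (the 8 examined summed to between 77867 and 91801 CPM, counts relative to the TMM-scaled library size). The sample records name a retinal extraction, but no retinal marker of 10 had more than 7 counts in a library. The *Tarsl2*-/- libraries were lower than every *Tarsl2*+/+ library in the summed CPM of leukocyte, platelet, red cell and fibroblast genes, and mouse 589 had the highest adipocyte level. These values stand beside the results below.

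Endothelial cells form the inner wall of all blood vessels, and in skeletal muscle most of them lie in capillaries that run along the fibres. They are held together by adherens junctions, built on VE-cadherin, and by tight junctions with claudin 5, and they take growth and survival signals through the VEGF receptors and the TIE receptors. Because these genes are far more active in endothelium than in muscle fibres, their level in a piece of whole muscle is often read as a measure of its vessel content. In such bulk RNA, fewer endothelial cells and less RNA per cell cannot be told apart.

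The levels of the genes were compared with each other per kilobase of exon (RPKM, the scaled CPM divided by the gene length in the count table). *Cldn5*, which encodes the tight junction protein claudin 5, was highest in each of the 6 libraries, at 23.0 ± 3.31 RPKM (SD, n = 3) in *Tarsl2*+/+ and 21.2 ± 5.38 in *Tarsl2*-/- muscle. *Tek*, the receptor of the angiopoietins, was second in each library, at 8.25 ± 0.855 and 7.48 ± 1.44 RPKM. *Pecam1* had rank 5 in each library, at 3.64 ± 1.01 and 3.29 ± 0.341 RPKM. The lowest levels were those of *Vwf* (0.688 ± 0.135 and 0.570 ± 0.0362 RPKM) and *Flt1* (0.533 ± 0.101 and 0.781 ± 0.0426 RPKM), the genes with the longest exon sequence of the 10. In *Tarsl2*+/+ muscle the order was *Cldn5*, *Tek*, *Cdh5*, *Eng*, *Pecam1*, *Kdr*, *Tie1*, *Emcn*, *Vwf* and *Flt1*. Neighbours whose ranges over the 3 mice overlapped were *Tek* and *Cdh5*, *Kdr* and *Tie1*, *Tie1* and *Emcn*, and *Vwf* and *Flt1*. In *Tarsl2*-/- muscle *Eng* stood before *Cdh5* with overlapping ranges. There *Flt1* stood before *Vwf* without overlap.

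Promoter sequences of RefSeq (GRCm38.p6) were matched for 7 of the 10 genes, and 3 are shown, each as the 250 bases before the transcription start: *Flt1*, the marker with the largest positive difference, *Tek*, a receptor at a high level, and *Cldn5*, the marker at the highest level. None of these stretches holds an exon of the GENCODE annotation. Capitals mark GGAA, on either strand, the core read by ETS factors, a family of transcription factors with a known role in endothelial genes.
Flt1 (chr5:147726012-147726261, minus strand): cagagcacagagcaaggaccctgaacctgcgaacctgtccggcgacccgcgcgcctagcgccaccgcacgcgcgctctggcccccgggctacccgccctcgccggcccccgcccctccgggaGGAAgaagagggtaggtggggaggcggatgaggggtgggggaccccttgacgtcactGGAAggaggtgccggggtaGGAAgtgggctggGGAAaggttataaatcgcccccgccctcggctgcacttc
Tek (chr4:94739039-94739288, plus strand): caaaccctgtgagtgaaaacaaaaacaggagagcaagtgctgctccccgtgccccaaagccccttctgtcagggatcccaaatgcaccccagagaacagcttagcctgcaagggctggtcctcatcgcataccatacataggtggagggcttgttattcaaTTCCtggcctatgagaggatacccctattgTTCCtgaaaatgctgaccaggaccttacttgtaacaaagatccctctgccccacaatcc
Cldn5 (chr16:18776597-18776846, plus strand): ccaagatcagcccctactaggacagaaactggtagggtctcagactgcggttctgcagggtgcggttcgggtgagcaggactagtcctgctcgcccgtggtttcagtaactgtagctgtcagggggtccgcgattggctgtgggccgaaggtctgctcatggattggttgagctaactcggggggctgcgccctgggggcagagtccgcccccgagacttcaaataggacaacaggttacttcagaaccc
In windows of 300 bases, which add the 50 bases after the start, GGAA occurred on either strand in 6 of the 7 genes, all but *Cldn5*, against 96.0% of 32851 RefSeq promoter windows. The longer ERG-type form CAGGAA, which contains GGAA, occurred in 4 of the 7 (*Eng*, *Emcn*, *Tek* and *Tie1*), against 30.6% of all windows. TATAAA occurred in *Flt1* alone, against 13.6% of all windows. The GC content of the 7 windows ran from 41.0% (*Emcn*) to 70.7% (*Flt1*), with a median of 52.7% over all windows. A match is a description of letters and was not tested for binding.

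The main comparison asked whether the vessel genes differed between *Tarsl2*-/- and *Tarsl2*+/+ muscle. Of the 10 markers, only *Cdh5*, which encodes VE-cadherin, passed the test, and it was lower in *Tarsl2*-/- muscle. *Flt1* was the only one with a positive difference, and its adjusted p missed the threshold. The other 8 markers had log2 fold changes (*Tarsl2*-/- over *Tarsl2*+/+) between -0.31 and -0.10, none past the threshold. The test was edgeR's quasi-likelihood test over all 15075 genes with Benjamini-Hochberg adjustment and a threshold of 0.05, by which 2.27% of the tested genes were called, 0.896% higher and 1.37% lower in *Tarsl2*-/- muscle. The median log2 fold change over the 10 genes was -0.18, beside 0.00253 over all tested genes, of which 50.4% were positive. At an unadjusted p under 0.05 there were 3 markers (*Cdh5*, *Flt1* and *Emcn*), where the share over all tested genes was 19.8%. The genotypes did not overlap in CPM in the same 3, where the share over all genes was 24.6%.

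**Figure D1:**
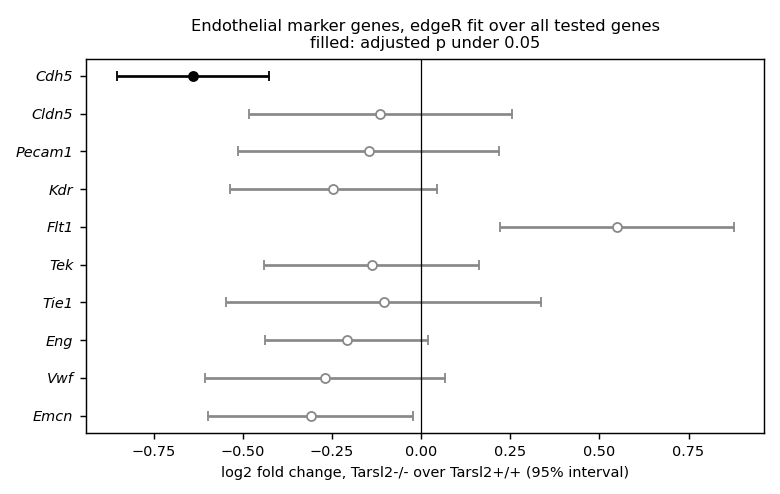
Log2 fold change of each of the 10 endothelial marker genes (*Tarsl2*-/- over *Tarsl2*+/+, horizontal axis) with its 95% interval from the edgeR fit, filled where the adjusted p was under 0.05. *Cdh5* (-0.64) is filled, the intervals of *Flt1* (0.22 to 0.88) and *Emcn* (-0.60 to -0.02) also leave out 0, and those of the other 7 genes span it.

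Summed over the 10 genes, the level was 220, 222 and 198 CPM in *Tarsl2*+/+ mice 583, 584 and 595, and 199, 163 and 194 CPM in *Tarsl2*-/- mice 588, 589 and 591. Mouse 589 had the lowest sum, and mouse 588 lay just above mouse 595, so the genotypes overlapped. The means were 213 ± 13.1 CPM (SD, n = 3) and 185 ± 19.6 CPM (SD, n = 3), a log2 ratio of -0.20. Without mouse 589 the log2 ratio was -0.12. Of all counts, the 10 genes took between 0.0194% and 0.0227% in *Tarsl2*+/+ and between 0.0161% and 0.0198% in *Tarsl2*-/- libraries.

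Among the junction genes, *Cdh5* (ENSMUSG00000031871, chromosome 8 of GRCm38, 104101625 to 104144511, plus strand) encodes the cadherin of endothelial adherens junctions. It had 548, 631 and 548 counts in *Tarsl2*+/+ mice 583, 584 and 595 (32.0, 33.5 and 28.7 CPM), and 384, 321 and 393 counts in *Tarsl2*-/- mice 588, 589 and 591 (between 19.1 and 21.4 CPM). Every *Tarsl2*-/- mouse was below every *Tarsl2*+/+ mouse, and the spread within each genotype was small beside the distance between them. *Cdh5* fell by 0.64 on the log2 scale (standard error 0.10, 95% interval -0.85 to -0.43, adjusted p = 0.00929 by edgeR), which is 0.642 of the *Tarsl2*+/+ level, from 31.4 ± 2.43 CPM to 20.2 ± 1.16 CPM (SD, n = 3). An exact two-sided permutation test gave p = 0.1, the smallest that 3 mice against 3 allow. The call held in 5 of 6 fits that each left out 1 library and in 7 of 7 other alternatives, with adjusted p-values from 3.20e-06 to 0.0508 over them; the one above the threshold came without *Tarsl2*+/+ mouse 583, where the log2 fold change was -0.63. A gene on the other strand, *Gm29682*, overlaps *Cdh5* in the table, but their annotated exons do not overlap.

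*Cldn5* (chromosome 16, 18776847 to 18778260) and *Pecam1* (chromosome 11, 106654217 to 106750628), which encodes the adhesion molecule CD31 of endothelium, platelets and leukocytes, did not pass. *Cldn5* was between 28.6 and 37.7 CPM in *Tarsl2*+/+ and between 21.9 and 37.1 CPM in *Tarsl2*-/- muscle, and its log2 fold change was -0.11 (95% interval -0.48 to 0.25, adjusted p = 0.757 by edgeR). *Pecam1* was at 19.6, 29.9 and 18.5 CPM in the *Tarsl2*+/+ mice and between 18.3 and 22.5 CPM in the *Tarsl2*-/- mice. Its log2 fold change of -0.15 (95% interval -0.51 to 0.22, adjusted p = 0.677 by edgeR) turned to 0.10 without mouse 584, the highest *Tarsl2*+/+ mouse. Of these 3 junction and adhesion genes, only *Cdh5* passed, and the genotypes overlapped in the other 2.

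The VEGF receptors *Kdr* (VEGFR2, the main signalling receptor, also known as Flk1) and *Flt1* (VEGFR1, which binds VEGF tightly and also exists in a soluble form) lie on chromosome 5, at 75932827 to 75978458 and 147561604 to 147726011. *Flt1* had 114, 165 and 118 counts in *Tarsl2*+/+ mice 583, 584 and 595 (6.66, 8.76 and 6.19 CPM) and 201, 166 and 208 counts in *Tarsl2*-/- mice 588, 589 and 591 (11.2, 10.3 and 10.1 CPM). All *Tarsl2*-/- mice were above all *Tarsl2*+/+ mice in CPM, although mouse 589, whose library was the smallest, had nearly the same raw count as mouse 584. The log2 fold change was 0.55 (standard error 0.15, 95% interval 0.22 to 0.88, unadjusted p = 0.00353, adjusted p = 0.0787 by edgeR; exact two-sided permutation test, p = 0.1). It was past the threshold without *Tarsl2*+/+ mouse 584 (0.72, adjusted p = 0.0242) and with no filter on low counts (0.54, adjusted p = 0.0111), and in none of the other 11 alternatives, whose range of adjusted p-values reached 0.241. Counts per gene do not separate the soluble from the membrane form.

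*Kdr* was between 22.3 and 26.5 CPM in *Tarsl2*+/+ mice. It was at 25.6, 18.6 and 18.9 CPM in *Tarsl2*-/- mice 588, 589 and 591, so that mouse 588 lay within the range of the other genotype. The log2 fold change was -0.25 (95% interval -0.54 to 0.04, adjusted p = 0.333 by edgeR). The counts of *Flt1* per count of *Kdr* in the same mouse were 0.251, 0.392 and 0.238 in *Tarsl2*+/+ and 0.438, 0.557 and 0.533 in *Tarsl2*-/- muscle, without overlap. This ratio was chosen after the values of both genes had been seen.

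The TIE receptors *Tek* (chromosome 4, 94739289 to 94874976) and *Tie1* (chromosome 4, 118471191 to 118490061), an orphan receptor that acts together with *Tek*, overlapped between genotypes. *Tek* was at 38.9 ± 4.03 and 35.2 ± 6.78 CPM (SD, n = 3), with its lowest value, 27.4 CPM, in mouse 589. Its log2 fold change of -0.14 (95% interval -0.44 to 0.16, adjusted p = 0.622 by edgeR) was 0.01 without mouse 589. *Tie1* was at 10.6 ± 2.95 and 9.79 ± 1.96 CPM (SD, n = 3), a log2 fold change of -0.10 (95% interval -0.55 to 0.34, adjusted p = 0.825 by edgeR). *Eng* (chromosome 2, 32646595 to 32682669), which encodes endoglin, a co-receptor for ligands of the TGF-beta family, was at 23.2 ± 1.53 and 20.1 ± 1.92 CPM (SD, n = 3). Its lowest *Tarsl2*+/+ and highest *Tarsl2*-/- mouse were both at 21.5 or 21.6 CPM, and the log2 fold change was -0.21 (95% interval -0.44 to 0.02, adjusted p = 0.298 by edgeR). Over 61 bases, exons of *Eng* overlap exons of *Fpgs* on the other strand, and the strand setting of the counting is not given in the sources used here.

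*Vwf* (chromosome 6, 125546774 to 125686679), which encodes the clotting factor that endothelial cells and platelets store, and *Emcn* (chromosome 3, 137341067 to 137432185), which encodes the sialomucin endomucin of capillary and venous endothelium, were the remaining markers. *Emcn* had 205, 197 and 192 counts in *Tarsl2*+/+ mice 583, 584 and 595 (11.97, 10.5 and 10.1 CPM) and 176, 127 and 174 counts in *Tarsl2*-/- mice 588, 589 and 591 (9.80, 7.91 and 8.45 CPM). The groups did not overlap, but mouse 588 lay just below mouse 595. The log2 fold change was -0.31 (95% interval -0.60 to -0.02, unadjusted p = 0.0372, adjusted p = 0.219 by edgeR). *Vwf* was at 12.7, 8.60 and 11.9 CPM in *Tarsl2*+/+ and between 8.69 and 9.81 CPM in *Tarsl2*-/- muscle. Mouse 584 was the lowest of all 6, and the log2 fold change of *Vwf* was -0.27 (95% interval -0.61 to 0.07, adjusted p = 0.363 by edgeR).

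**Figure D2:**
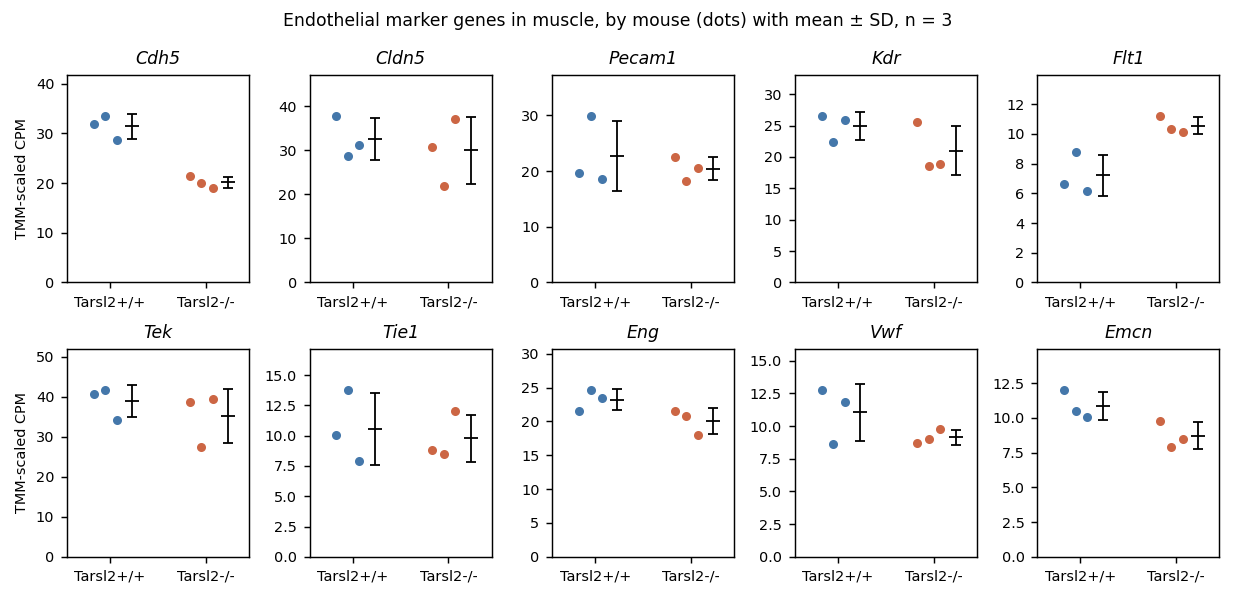
CPM of the 10 endothelial marker genes after TMM scaling (vertical axis, from 0), 1 dot per mouse, with the mean and SD of each genotype (n = 3). The genotypes are apart in *Cdh5* (19.1 to 21.4 against 28.7 to 33.5 CPM), *Flt1* and, narrowly, *Emcn*, and overlap in the other 7.

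To compare the markers with each other inside each mouse, the counts of each gene were expressed as a percent of the summed counts of the other 9, so that library size and scaling cancel. *Cdh5* was at 17.1%, 17.8% and 17.0% in *Tarsl2*+/+ mice 583, 584 and 595, and at 12.04%, 14.0% and 10.9% in *Tarsl2*-/- mice 588, 589 and 591. *Flt1* was at 3.13%, 4.11% and 3.22% against 5.96%, 6.79% and 5.50%. In both genes the genotypes stayed apart, whereas the other 8 overlapped, *Emcn* included. The exact two-sided permutation test gave p = 0.1 for each of the 2, the smallest possible. After Benjamini-Hochberg adjustment over the 10 such tests it was 0.5. In CPM, 24.6% of all tested genes did not overlap, and no such share was computed for this measure. The log2 ratio of the means was -0.49 for *Cdh5*, 0.80 for *Flt1* and between -0.11 and 0.11 for the others. This measure was added after the values in CPM had been seen.

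**Figure D3:**
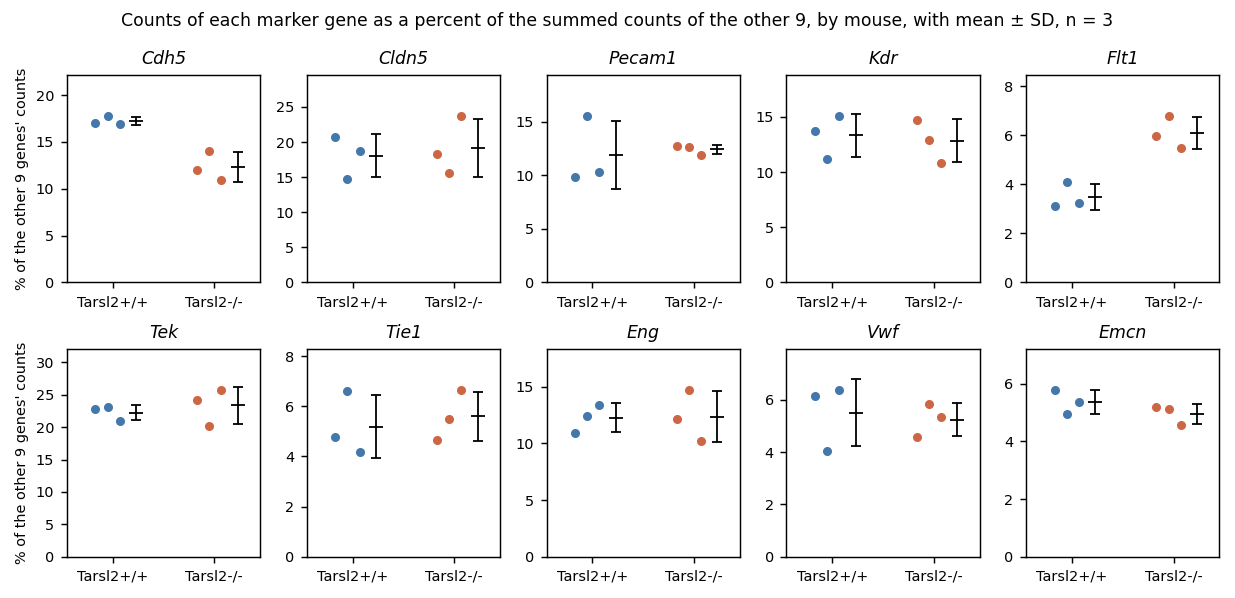
Counts of each marker gene as a percent of the summed counts of the other 9 markers in the same mouse (vertical axis, from 0), 1 dot per mouse, with the mean and SD of each genotype (n = 3). *Cdh5* is lower (10.9% to 14.0% against 17.0% to 17.8%) and *Flt1* higher (5.50% to 6.79% against 3.13% to 4.11%) in *Tarsl2*-/- muscle, and the other 8 genes overlap.

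Over the 6 libraries the markers did not all move together. The Pearson correlation of the log2 CPM of each gene with the mean of the other 9 was 0.88 for *Tek*, 0.80 for *Emcn*, 0.60 for *Cdh5* and 0.53 for *Pecam1*. It was 0.03 for *Vwf* and -0.57 for *Flt1*. With 6 points that share library scaling and genotype, these values only describe the libraries. Mouse 589 was the lowest of the 6 in *Pecam1*, *Tek*, *Cldn5*, *Emcn* and *Kdr*.

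The ligands and partners of the markers were then examined in 5 lists of other genes of these pathways. In each list 0 of the tested genes were called (8 for VEGF, 4 for the angiopoietins, 13 for endoglin, 11 for the junctions and 6 for *Vwf*). Over all tested genes 2.27% were called, so 0 in lists this short does not set them apart. In the VEGF list, 2 of 8 had an unadjusted p under 0.05, near the 19.8% of all tested genes. They were the ligands *Vegfa* and *Vegfb*, which muscle fibres also make. *Vegfa* was at 38.6, 38.9 and 43.5 CPM in the *Tarsl2*+/+ and 62.9, 57.4 and 46.9 CPM in the *Tarsl2*-/- mice, a log2 fold change of 0.46 (adjusted p = 0.0577 by edgeR). *Vegfb* was at 68.6, 82.8 and 86.2 against 105.5, 106.3 and 99.9 CPM, a log2 fold change of 0.39 (adjusted p = 0.0645 by edgeR). Both ligands were without overlap between genotypes, as were 24.6% of all tested genes, and neither passed the threshold. The log2 fold change of the co-receptor *Nrp1* was 0.06 (adjusted p = 0.797 by edgeR). The median over the 8 genes was -0.02.

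Of the 4 angiopoietin genes, 2 had an unadjusted p under 0.05 (19.8% of all tested genes). *Angpt1*, the activating ligand of *Tek*, was at a log2 fold change of 0.30 (adjusted p = 0.189 by edgeR). *Angpt2* was at 0.05 (adjusted p = 0.955) and *Ptprb*, the phosphatase that acts on the TIE receptors, at 0.13 (adjusted p = 0.63). *Angpt4*, named here after its values were seen, had 26, 20 and 30 counts in *Tarsl2*+/+ and 8, 12 and 5 in *Tarsl2*-/- mice, and its log2 fold change was -1.56 (standard error 0.41, adjusted p = 0.0703 by edgeR). Its counts were the lowest of the 4 genes, and its genotypes did not overlap.

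Of the 13 tested genes around endoglin, 3 had an unadjusted p under 0.05, near the 19.8% of all tested genes, and the median log2 fold change was -0.14. These 3 were *Id1*, higher, and the receptor *Tgfbr2* (-0.28, adjusted p = 0.0862 by edgeR) and the ligand *Tgfb2* (-0.33, adjusted p = 0.144), lower in *Tarsl2*-/- muscle, none past the threshold. *Id1* and *Id3*, targets of BMP signalling, were at 0.47 (adjusted p = 0.0792 by edgeR) and -0.19 (adjusted p = 0.298), and *Tgfb3* was at -0.10 (adjusted p = 0.592). The ligands *Gdf2* and *Bmp10*, made in other organs, had 0 counts in all 6 libraries, which at 3 counts allows at most between 0.146 and 0.187 CPM per library. Among the junction partners the median was -0.03. *Ctnnb1*, a catenin that binds VE-cadherin, was at -0.08 (adjusted p = 0.661 by edgeR), *Ctnna1* at -0.03 (adjusted p = 0.879) and *Cd99l2* at 0.10 (adjusted p = 0.74). At an unadjusted p under 0.05 there was 1 of 11 (19.8% of all tested genes). It was *Tjp1*, at -0.29 (adjusted p = 0.128 by edgeR). In the *Vwf* list the median was -0.46, with 4 of 6 genes negative. *Cd63* was at -0.12 (adjusted p = 0.543 by edgeR), *Mmrn1* at 0.30 (adjusted p = 0.581) and *Rab27a* at 0.31 (adjusted p = 0.534), and the other 3 genes, all under 1 CPM on average in both genotypes, were at -0.83 (*F8*), -0.81 (*Unc13d*) and -1.09 (*Gp1ba*), with adjusted p-values from 0.235 to 0.424.

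In 2 wider lists of endothelial genes, 26 general genes and 13 transcription factors, 1 of 39 passed the test, against 2.27% of all tested genes. It was *Icam2* (chromosome 11, 106377656 to 106388075), an adhesion molecule of endothelium that leukocytes and platelets also carry. It had 225, 247 and 242 counts in *Tarsl2*+/+ mice 583, 584 and 595 (13.1, 13.1 and 12.7 CPM) and 165, 128 and 203 counts in *Tarsl2*-/- mice 588, 589 and 591 (9.19, 7.98 and 9.85 CPM). *Icam2* fell by 0.52 on the log2 scale (standard error 0.12, adjusted p = 0.0457 by edgeR), and no fit that left out a library called it. The median log2 fold change was -0.07 over the 26 genes, 10 positive and 16 negative, and 0.00591 over the 13 transcription factors, 7 positive and 6 negative. The 3 of the 26 general genes with the highest level per exon length, *Cd34*, *Tm4sf1* and *Egfl7*, had log2 fold changes of -0.15, 0.02 and -0.06, with adjusted p-values from 0.464 to 0.966 by edgeR. *Erg* and *Fli1*, ETS factors of endothelium named after their values were seen, were at 0.19 (adjusted p = 0.629) and 0.01 (adjusted p = 0.987). The other ETS factors of the list, *Ets1* and *Ets2*, were at -0.22 (adjusted p = 0.264 by edgeR) and 0.01 (adjusted p = 0.982). *Ets1* was lower in every *Tarsl2*-/- than in every *Tarsl2*+/+ mouse, where 24.6% of all tested genes did not overlap. The 26 genes summed to between 719 and 790 CPM in *Tarsl2*+/+ and between 602 and 783 CPM in *Tarsl2*-/- libraries, with mouse 589 again the lowest.

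By vessel type, none of the 10 capillary, 12 arterial or 6 venous genes tested passed, where 2.27% of all tested genes were called. The median log2 fold change was 0.26 over the capillary genes, of which 8 of 10 were positive (50.4% of all tested genes) and 5 were at an unadjusted p under 0.05 (19.8% of all tested genes). Among the 5, *Aplnr* was negative (-0.70, adjusted p = 0.191 by edgeR), and the genotypes overlapped in all 10. Among them *Fabp4* was at 0.43 (adjusted p = 0.249 by edgeR), *Cd36* at 0.03 (adjusted p = 0.915) and *Rgcc* at 0.29 (adjusted p = 0.224). *Fabp4* and *Cd36* bind and carry fatty acids and are also made by adipocytes. *Fabp4* was highest in mouse 589 (3358 CPM against 1540 to 2257 CPM in the other 5), which also had an adipocyte gene sum of 3722 CPM against 1197 to 1925 CPM in the other 5. *Cd36* and *Rgcc* were also highest in mouse 589. *Aqp1* (0.52, adjusted p = 0.133 by edgeR) and *Car4* (0.50, adjusted p = 0.193) were also among the 5. In both, mouse 589 was the lowest *Tarsl2*-/- mouse (157 and 5.30 CPM). The part of adipocytes in the capillary values was not tested. Arterial genes had a median of -0.20 with 10 of 12 negative (*Fbln5* -0.15, *Gja4* -0.20 and *Hey1* -0.02, adjusted p-values from 0.493 to 0.976 by edgeR). Venous genes had a median of -0.07 with 4 of 6 negative (*Lrg1* 0.02, *Ephb4* -0.07 and *Ackr1* -0.55, adjusted p-values from 0.126 to 0.963). At an unadjusted p under 0.05 there were 1 of 12 arterial and 2 of 6 venous genes, beside the same 19.8% of all tested genes. Differences between the vessel types were not tested.

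Mural cells, the pericytes and smooth muscle cells that wrap vessels, were examined by 13 genes. None passed, where 2.27% of all tested genes were called, and the median log2 fold change was -0.07. *Rgs5*, a pericyte gene, was at 0.35 (adjusted p = 0.235 by edgeR), *Higd1b* at -0.54 (adjusted p = 0.0741) and *Acta2* at -0.07 (adjusted p = 0.889). The summed mural level was between 445 and 533 CPM in *Tarsl2*+/+ and between 455 and 636 CPM in *Tarsl2*-/- libraries. Most of it was *Rgs5*, at 263 and 336 CPM on average.

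**Figure D4:**
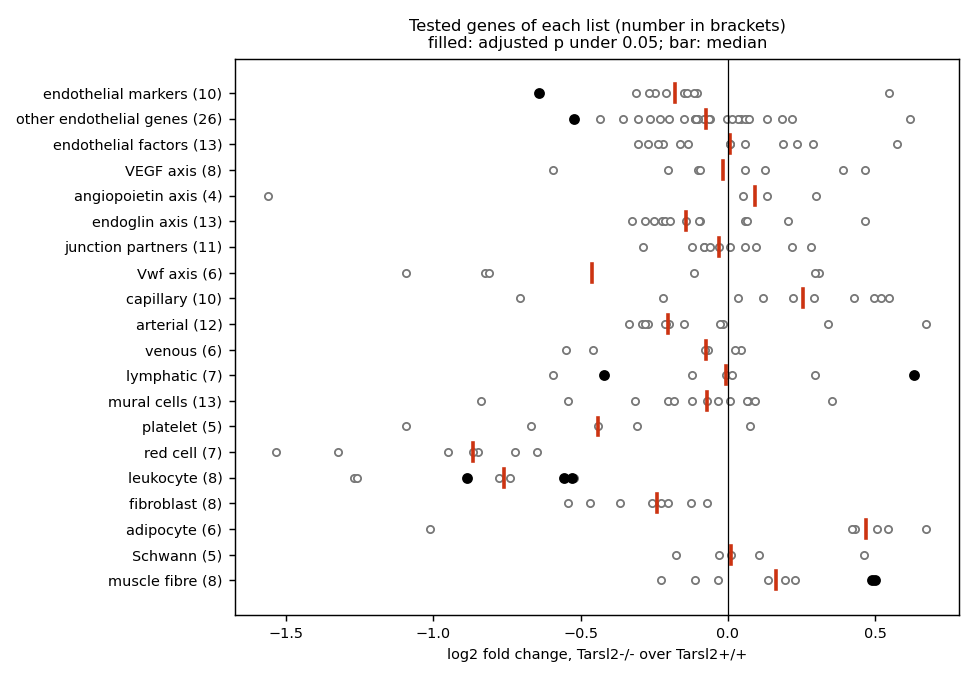
Log2 fold change (*Tarsl2*-/- over *Tarsl2*+/+, horizontal axis) of each tested gene of 20 gene lists, 1 dot per gene, filled where the adjusted p was under 0.05, with a bar at each median and the number of tested genes in brackets. The markers and the lists of endothelial genes by vessel type centre between -0.20 and 0.26, whereas leukocyte (-0.76) and red cell (-0.87) genes lie below 0 throughout.

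Several markers are also carried by blood cells, so their genes were examined beside them. All 8 leukocyte genes tested were negative, their median was -0.76 on the log2 scale, and 3 passed, where 1.37% of all tested genes were called lower. The 3 were *Lyz2* (-0.89, adjusted p = 0.004 by edgeR), the lysozyme of myeloid cells, and the macrophage receptors *Csf1r* (-0.53, adjusted p = 0.0167) and *Adgre1* (-0.56, adjusted p = 0.0355). The leukocyte sum was between 967 and 1158 CPM in *Tarsl2*+/+ and between 537 and 688 CPM in *Tarsl2*-/- libraries, without overlap. Most of it was *Lyz2*, at 910 and 492 CPM on average. Of the 5 platelet genes tested 4 were negative and none passed, and the sum of the 9 in the table was between 117 and 137 against 90.0 and 110 CPM, of which *Pf4*, also made by macrophages, was 115 and 93.1 CPM on average. All 7 red cell genes were negative, none passed, and their sum was between 4744 and 10382 against 4162 and 4532 CPM. All 8 fibroblast genes were negative, none passed, and their sum was between 11230 and 13184 against 9345 and 10874 CPM. At an unadjusted p under 0.05 there were 8 of 8 leukocyte, 3 of 5 platelet, 6 of 7 red cell and 3 of 8 fibroblast genes. The share over all tested genes was 19.8%, with 2.27% called and 50.4% positive. The summed levels of these 4 lists were lower in every *Tarsl2*-/- library, as were *Cdh5* and *Icam2*, which passed the test, and *Emcn*, which did not. Over all tested genes, 24.6% did not overlap between genotypes in either direction. *Pecam1* (-0.15) and *Vwf* (-0.27), the markers that platelets also carry, overlapped. The part of blood cells and fibroblasts in the values of these genes was not tested.

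**Figure D5:**
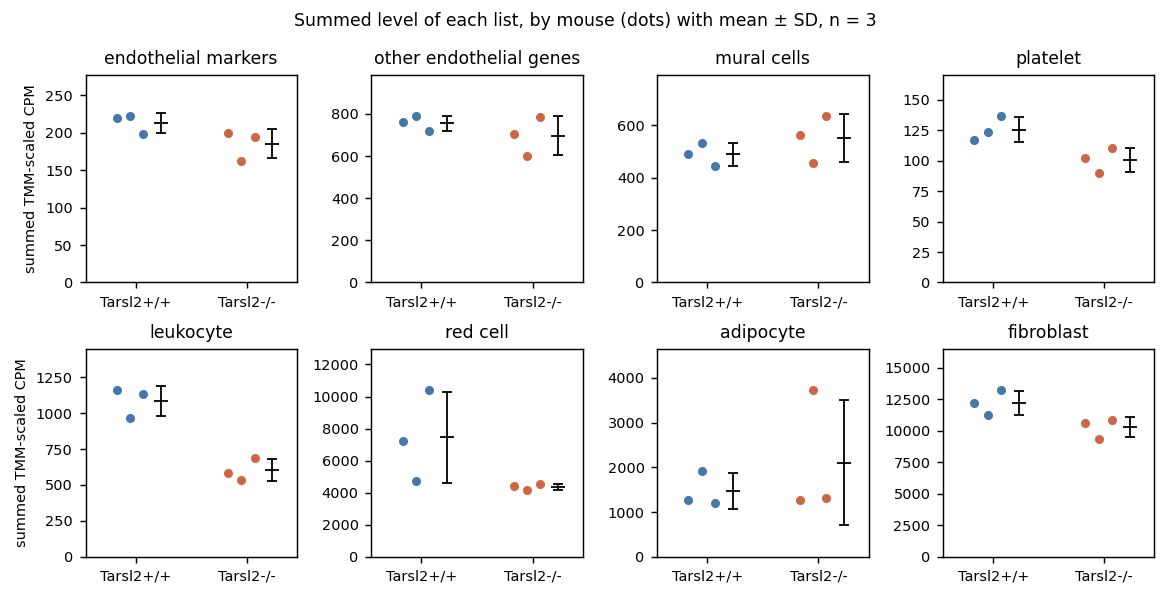
Summed CPM after TMM scaling of 8 gene lists (vertical axis, from 0), 1 dot per mouse, with the mean and SD of each genotype (n = 3). The endothelial markers, the other endothelial genes, the mural genes and the adipocyte genes overlap between genotypes, whereas platelet, leukocyte, red cell and fibroblast sums are lower in all *Tarsl2*-/- mice.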

How the data were processed

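RNA-seq libraries of muscle from 3 *Tarsl2*+/+ and 3 *Tarsl2*-/- mice were analysed. Per the study's methods, the libraries were stranded and poly(A)-selected and the reads were mapped with HISAT2 to mm10, whereas GEO's processing notes name mm8 and Bowtie 0.12.2. The authors deposited whole-number counts per gene and a gene length, with GRCm38 coordinates, and 95.2% of the matched Ensembl identifiers had the coordinates of GENCODE vM21. The counting tool and its strand setting are not given in the sources used here.

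Genes were kept by filterByExpr (minimum count 10, minimum total count 15), normalised with TMM factors and compared by genotype alone in edgeR 4.0.16 (glmQLFit and glmQLFTest, run in R 4.3.3), with Benjamini-Hochberg adjustment over all tested genes. The standard error is the size of the log2 fold change over the square root of F. Log2 CPM used a prior count of 2. The fit was tested on simulated data with known changes, of which it recovered most, with a share of false calls above the nominal threshold. Calls near the threshold, such as those of *Icam2*, *Pdpn* and *Ckm*, are therefore less certain. The limit at 3 counts covers counting error only. Each sample carries its own number, taken here as its mouse, and the p-values measure the spread between these samples.

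The markers and gene lists were chosen with earlier results of these data known, and the lists were written from general knowledge. The genes named were the 10 markers, the called genes of each list, up to 3 genes of the highest level per length in each endothelial, pathway and mural list, and the 10 genes most like the markers' mean. *Angpt4*, *Erg*, *Fli1*, *Prox1*, *Lyve1*, *Pf4*, *Gdf2*, *Bmp10*, *Esam*, *Calcrl*, *Tgfbr2*, *Tgfb2*, *F8*, *Unc13d*, *Gp1ba*, *Aplnr*, *Aqp1*, *Car4*, *Pvalb*, *Mb* and *Myh4* were named after their values were seen. So were *Ets1*, *Ets2*, *Tjp1*, *Flt4* and *Reln*. Alternatives were RLE, upper quartile, library totals, no filter beyond 1 count, at least 10 counts in every library, DESeq2 1.42.0, limma-voom (limma 3.58.1) and each library left out.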

Additional observations from a re-analysis of the deposited data

How the results depend on the processing

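No paired analysis was made, because the sources used here give no litter or pair for the sequenced mice. The number of genes called, 342, was 1437 with no filter on low counts and 671 with DESeq2, and lay between 81 and 625 when 1 library was left out. The number of markers called, 1, was 2 with no filter, and ran from 0, without *Tarsl2*+/+ mouse 583, to 2, without *Tarsl2*+/+ mouse 584. The number of the 39 wider endothelial genes called, 1, was 3 with no filter, 2 with DESeq2, 0 with library totals, 0 with limma-voom, and 0 in each fit that left out a library. The median log2 fold change of the markers stayed between -0.26 and -0.12, and the log2 ratio of their sums between -0.26 and -0.12. Genes near 0 changed sign. With 1 library left out, *Cldn5* ranged from -0.302 to 0.066 (above 0 without mouse 583 or 589), *Pecam1* from -0.278 to 0.10 and *Tie1* from -0.289 to 0.13 (both above 0 without mouse 584), and *Tek* from -0.234 to 0.0125 (above 0 without mouse 589). The cause of these changes was not tested. With 3 mice per genotype, the intervals of the markers that were not called still allow log2 fold changes as low as -0.61 (*Vwf*) and as high as 0.88 (*Flt1*).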

Other observations

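Of 7 lymphatic endothelial genes tested, 2 passed the test, in opposite directions, where 2.27% of all tested genes were called. *Pdpn*, which encodes podoplanin and is also made by fibroblasts, fell from 27.1 ± 2.22 CPM to 20.2 ± 0.30 CPM (SD, n = 3), a log2 fold change of -0.42 (adjusted p = 0.045 by edgeR). *Tbx1*, a transcription factor that muscle also uses, rose from 13.0 ± 1.46 to 20.2 ± 1.81 CPM, a log2 fold change of 0.63 (adjusted p = 0.0206 by edgeR). *Prox1* and *Lyve1*, well-known genes of lymphatic vessels named after their values were seen, were at -0.01 (adjusted p = 0.996) and -0.12 (adjusted p = 0.477). The rest of the list, *Flt4*, *Mmrn1* and *Reln*, was at -0.59 (adjusted p = 0.369 by edgeR), 0.30 (adjusted p = 0.581) and 0.02 (adjusted p = 0.988). The median of the list was -0.01, with 3 genes positive and 4 negative. Among the 8 muscle fibre genes, 5 were positive and 3 negative, with a median of 0.16, and 2 passed (0.896% of all tested genes were called higher). *Des* and *Ckm* rose by 0.50 and 0.49 on the log2 scale (adjusted p = 0.0196 and 0.0433 by edgeR), and the 3 negative genes were *Pvalb* (-0.23), *Mb* (-0.11) and *Myh4* (-0.03), with adjusted p-values from 0.347 to 0.936.

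Among the 8721 other genes that averaged 3 or more in log2 CPM, the log2 CPM of 10 followed the mean of the markers most closely over the 6 libraries, with Pearson correlations from 0.94 to 0.99. They were *Capzb*, *Mad2l1*, *Rad1*, *Naalad2*, *Cep85*, *Cpa3*, *Cd38*, *Mkln1*, *Dclk1* and *Adgrl4*. Only *Adgrl4*, a receptor of endothelium, was in an endothelial list, with a log2 fold change of -0.35 (adjusted p = 0.157 by edgeR). Of the 100 closest genes, 3 were in an endothelial list (*Adgrl4*, *Esam* and *Calcrl*), against 0.493% of the 8721. Over 6 libraries, high correlations of this kind are frequent among many genes and are given as a description.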
